A study of Mus musculus with 18 samples.

Results

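Integrins and adhesion receptors of the B cell surface were followed here at the mRNA level through 9 genes, Itgal, Itgb2, Itga4, Itgb1, Itgb7, Icam1, Icam2, Cd44 and Selplg. They were taken by name from the 55487 Ensembl gene entries of the deposited count tables, and all 9 were among the 15318 genes expressed well enough to be tested. The cells were WEHI-231, an established murine immature B lymphoma line that carries an IgM B cell receptor (BCR). Parental WEHI-231 cells (labelled wt) were compared with the TFEB mutant lines #A-59 and #B-20, each grown from a single cell after CRISPR/Cas9 editing of Tfeb. Every line was either left untreated (0 h) or stimulated for 6 h or 18 h through its BCR by an anti-mouse IgM antibody (its F(ab')2 fragments) at 10 µg/ml, called anti-IgM here. This gave 9 groups of 2 libraries and 18 libraries in all, without a clone that had gone through editing with Tfeb intact. As each mutant line goes back to a single cell, what the mutation does and what sets such a line apart cannot be told apart.

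Integrins are pairs of an alpha and a beta chain, and the mRNA of a chain is therefore only part of a receptor. Itgal and Itgb2 encode the chains of LFA-1, which binds the ICAM proteins on neighbouring cells. Itga4 encodes a chain that pairs with the product of Itgb1 to form VLA-4, the receptor for VCAM1 and fibronectin, or with that of Itgb7 to form the gut homing receptor for MAdCAM-1. Icam1 and Icam2 encode ligands of LFA-1, Cd44 encodes the receptor for hyaluronan, and Selplg encodes PSGL-1, the ligand of the selectins. B cells use these molecules to hold on to stroma, to form the synapse with antigen-presenting cells and to enter tissues.

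Library totals lay between 11223588 and 29655262 counts (median 19846544), and the 9 genes were covered by 126 (Itgb7) to 27804 (Itgb1) counts per library. Levels are given as CPM, the usual scale of counts relative to the library total, after TMM scaling (trimmed mean of M values). Tfeb itself lay at 79.2 to 99.9 CPM in the parental libraries and at 25.5 to 54.1 CPM in those of the clones, which bears on its mRNA only. The B cell gene Pax5 was at 1020 to 2380 CPM over all libraries. Of 8 markers of T and NK cells, 7 had at most 9 counts in any library and Lck had 41.7 to 147 CPM. Of 8 myeloid markers, 5 had at most 6 counts, while Csf1r had 0 to 57 counts, Adgre1 5 to 33 counts and Itgam 0.306 to 26.3 CPM. Of 8 stromal and endothelial markers, 6 had at most 19 counts, Cdh5 had 20 to 112 counts and Pecam1 20.2 to 160 CPM, and of 4 erythroid markers 3 had at most 1 count and Klf1 had 16 to 63. Replicate 2 of #B-20 at 6 h stood apart in that 3.45% of its counts fell on identifiers without a matching symbol, against 0.196% to 0.567% in the other libraries. Of the 12 differences of the 9 genes in #B-20 at 6 h that had an adjusted p below 0.01, 10 kept it without this library, and the exceptions were the fall of Icam1 from 0 h (adjusted p = 0.0436) and the difference in response of Cd44 (adjusted p = 0.035). At 6 h the duplicates of the clones agreed less than those of parental cells. The chi-square of their counts over its degrees of freedom was 29.7 in #A-59, 51.6 in #B-20 and 3.29 in parental cells. The tests below share 1 estimate of the spread per gene over all groups. In cultures measured in bulk, fewer cells that carry an mRNA and less of it per cell cannot be told apart.

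The DNA just before an annotated start of transcription was available from RefSeq (GRCm38.p6) for 5 of the 9 genes, Itga4, Itgb1, Itgb7, Icam1 and Cd44. For Itgb7 this start lay inside the annotated gene, so that the DNA before its outermost start was not covered. TFEB binds the E-box core CACGTG, most strongly within the CLEAR palindrome. In the 250 bases before the start, none of these 5 genes held CACGTG, which was present in 6.02% of all 32851 RefSeq promoters over the same length on either strand. The relaxed E-box CANNTG, found in 66.2% of promoters, occurred in Itgb7, Itga4 and Icam1. Shown here are the upstream sequences of Itgb7, the gene with the largest fold changes, of Itgb1, which was lower in both clones at each time, and of Icam1, the gene with the most matches. Capitals mark CANNTG, the kappaB letters GGAAATTCC and the ETS letters CCGGAA, the last on either strand (TTCCGG on the other).
Itgb7 (chr15:102231936-102232185, minus strand): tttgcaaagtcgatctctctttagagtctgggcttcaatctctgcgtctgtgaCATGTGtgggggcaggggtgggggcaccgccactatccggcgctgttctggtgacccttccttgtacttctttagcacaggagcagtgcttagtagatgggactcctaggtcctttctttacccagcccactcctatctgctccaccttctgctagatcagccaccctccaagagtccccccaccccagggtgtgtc
Itgb1 (chr8:128685404-128685653, plus strand): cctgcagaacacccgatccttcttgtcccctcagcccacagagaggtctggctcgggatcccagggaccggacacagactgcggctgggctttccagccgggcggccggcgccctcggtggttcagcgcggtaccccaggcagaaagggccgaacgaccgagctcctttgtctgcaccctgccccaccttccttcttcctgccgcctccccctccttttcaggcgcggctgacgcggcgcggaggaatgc
Icam1 (chr9:21015690-21015939, plus strand): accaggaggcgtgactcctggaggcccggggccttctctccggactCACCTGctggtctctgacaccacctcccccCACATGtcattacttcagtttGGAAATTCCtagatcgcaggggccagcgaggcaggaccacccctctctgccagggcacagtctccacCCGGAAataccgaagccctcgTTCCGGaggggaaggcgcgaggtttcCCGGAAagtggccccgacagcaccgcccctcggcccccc
In Itgb7 the single match reads CATGTG and ends 192 bases before the start used. That window lies within the annotated gene, which spans 102215994 to 102233405 on the minus strand. The Itgb1 window held none of the letters searched. Icam1 held GGAAATTCC at 153 to 145 bases before its start, letters present in 0.286% of promoters, together with 3 CCGGAA matches, letters present in 3952 promoters. TGANTCA, the AP-1 letters, occurred in none of the 5 windows and in 6.75% of all promoters. These are matches of letters and not sites of binding.

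Compared per kilobase of the main transcript, Itgb1 was the most abundant of the 9 mRNAs in untreated parental cells, at 203 CPM per kilobase. Itgal followed at 40.0, Selplg at 35.3, Itga4 at 29.1, Icam1 at 28.4, Itgb2 at 19.7, Itgb7 at 18.7, Cd44 at 13.8 and Icam2 at 3.79 CPM per kilobase. The libraries of Itga4 and Icam1 overlapped in this order, as did those of Itgb2 and Itgb7. By group mean per kilobase, Icam2 was the lowest in each of the 9 groups and Itgb1 the highest or second highest, whichever gene length was used. The libraries of Icam2 and Itgb7 overlapped in #B-20 at 6 h. In some groups the place of Icam2 rested on its length, 6452 bases for the main transcript. In CPM it was above Itgb7 in parental cells at 6 h (22.1 against 18.1), untreated #B-20 (18.1 against 10.7) and #B-20 at 6 h (17.9 against 7.68). In the other groups it was the lowest of the 9 genes in CPM as well. With all annotated exons taken as the length, Selplg dropped to 15.4 and Itga4 to 17.3 CPM per kilobase, so that the middle of the order rested on the choice of transcript. Itgb7 varied most between the groups, 23.6 times from 7.68 CPM (#B-20, 6 h) to 181 CPM (parental, 18 h), and Icam2 least, 1.46 times.

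**Figure D1:**
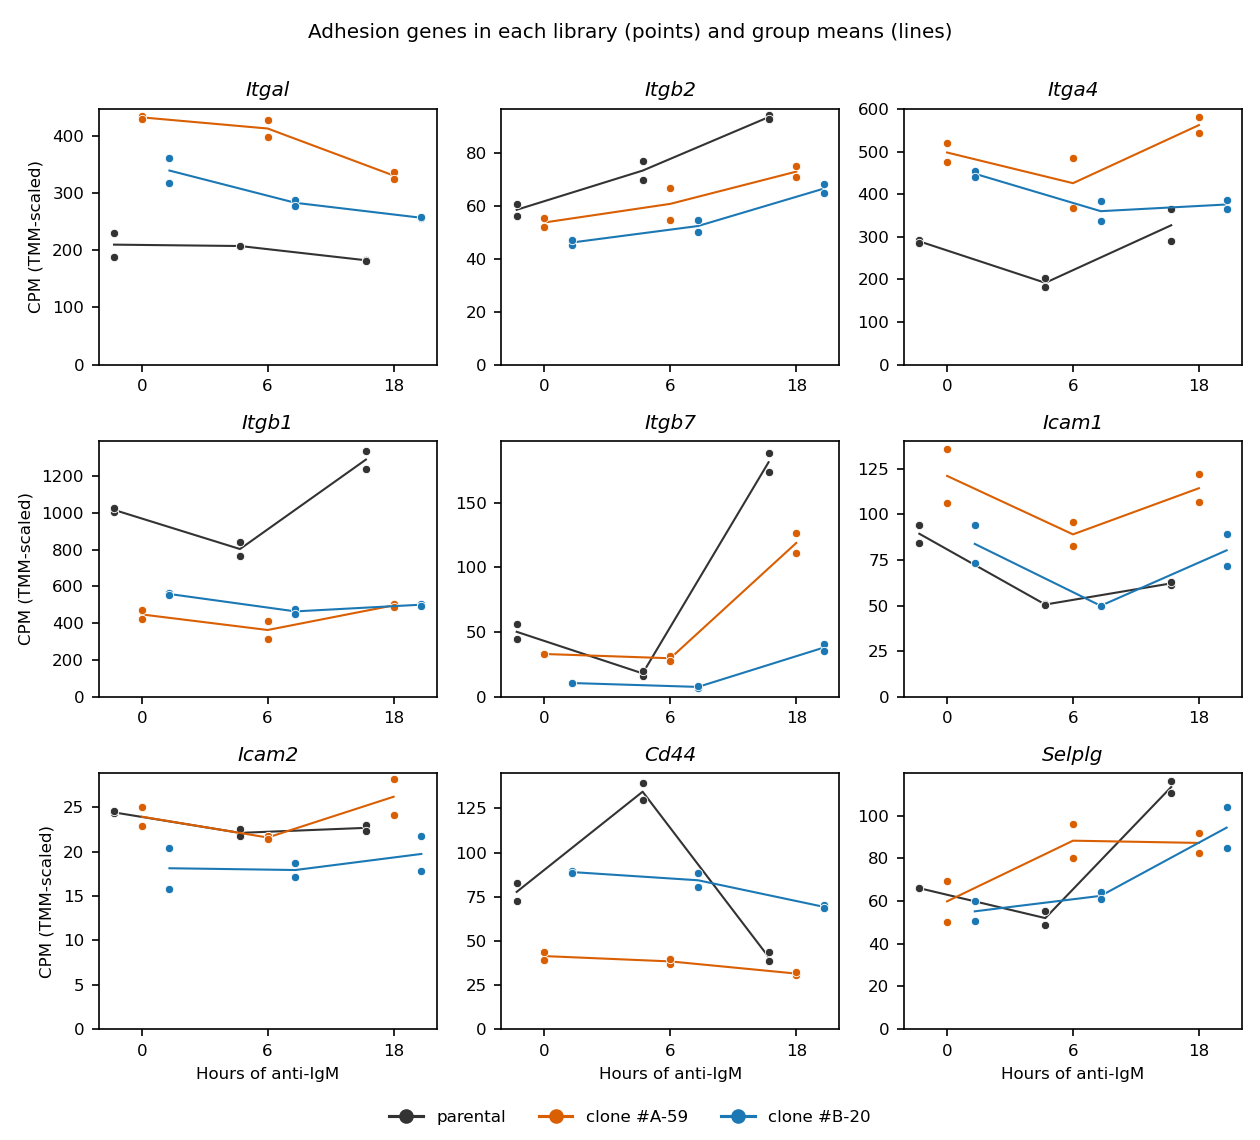
Each panel shows 1 gene, with CPM after TMM scaling on a linear axis from 0 against hours of anti-IgM. Points are the 2 libraries of a group and lines join the group means of parental cells (black), clone #A-59 (orange) and clone #B-20 (blue). Itgb1 was lower in both clones at every time, and Itgb7 reached 181 CPM in parental cells at 18 h.

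Differences were tested with edgeR's quasi-likelihood test over all 15318 genes, and every adjusted p given is from this test with Benjamini-Hochberg adjustment. A differentially expressed gene (DEG), a term taken over from the study, had an adjusted p below 0.01 and a log2 fold change beyond 1 or -1. The words higher, lower, rose and fell are used at an adjusted p below 0.01 whatever the size. All 6 comparisons between a clone and parental cells share the parental libraries of their time. Over these, 10 of the 54 gene differences were DEGs, 2 higher and 8 lower in the clone. In #A-59, 2 of the 9 genes were DEGs at 0 h, 3 at 6 h and 1 at 18 h, where 4.78%, 7.91% and 4.92% of all tested genes were. In #B-20 the counts were 1, 1 and 2 of 9, against 5.16%, 6.73% and 6.21% of all genes. The median log2 fold change of the 9 genes was -0.12, 0.72 and -0.36 in #A-59 and -0.26, -0.30 and -0.20 in #B-20, while that over all genes lay between -0.02 and 0.01. At an adjusted p below 0.01 whatever the size, 5, 7 and 5 genes passed in #A-59 (9.56%, 22.7% and 10.4% of all genes) and 4, 6 and 5 in #B-20 (10.7%, 14.2% and 14.2%). Of the differences that passed at any size, 16 were higher and 16 lower in the clone. The 9 genes thus had no common direction at this threshold, although most DEGs were lower, and each chain is described by itself. Libraries of the compared groups lay apart for 46.9% to 76.1% of all tested genes, depending on the comparison, so that separation of 2 against 2 libraries is frequent.

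Itgb1, the beta chain shared by VLA-4 and many receptors for matrix proteins, was lower in both clones at all 3 times. The parental libraries held 1006 and 1027 CPM untreated, 765 and 843 CPM after 6 h of anti-IgM and 1241 and 1339 CPM after 18 h. Those of #A-59 had 423 and 473, 312 and 415, and 507 and 488 CPM at these times. Those of #B-20 had 566 and 552, 480 and 449, and 506 and 496 CPM. No library of a clone reached the lowest parental value of its time. Relative to parental cells, the log2 fold changes of #A-59 were -1.18 ± 0.11 (SE), -1.15 ± 0.11 and -1.38 ± 0.11 in the order of the times, with adjusted p of 1.44e-07, 1.36e-07 and 1.87e-08. In #B-20 they were -0.86 ± 0.11, -0.79 ± 0.11 and -1.36 ± 0.11, with adjusted p of 7.06e-06, 1.46e-05 and 1.65e-08, so that the difference in #B-20 was a DEG at 18 h only. Without replicate 1 of #A-59 at 6 h, the difference there was -0.96 and no longer beyond -1. In parental cells the change of Itgb1 with anti-IgM missed the threshold at 6 h (log2 fold change -0.34, adjusted p = 0.0383) and at 18 h (1.27-fold, adjusted p = 0.0117). It passed in 3 of 8 other settings at 6 h (adjusted p = 0.00123 to 0.0605 over all 8) and in 5 of 8 at 18 h (adjusted p = 4.89e-04 to 0.0251).

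Itga4, the alpha chain of VLA-4, went the other way and was higher in #A-59 at each time. Untreated parental cells had 293 and 286 CPM, those after 6 h 203 and 181 CPM and those after 18 h 365 and 289 CPM. In the same order #A-59 had 474 and 521, 367 and 485, and 581 and 544 CPM, and #B-20 had 455 and 441, 384 and 337, and 366 and 386 CPM. At each time all #A-59 values were above the parental ones, whereas the highest parental and the lowest #B-20 library after 18 h were 365 and 366 CPM. Against parental cells #A-59 had log2 fold changes of 0.78 ± 0.12 untreated, 1.15 ± 0.12 after 6 h and 0.78 ± 0.12 after 18 h, and only the second was a DEG (adjusted p = 8.07e-07). Without replicate 2 of #A-59 at 6 h it was 0.94. #B-20 had more Itga4 at 0 h (log2 fold change 0.63 ± 0.12, adjusted p = 9.88e-04) and at 6 h (0.91 ± 0.12, adjusted p = 1.66e-05), and at 18 h the difference missed the threshold (adjusted p = 0.26). The adjusted p at 0 h was 0.0118 to 0.018 without replicate 1 or 2 of untreated parental cells or replicate 1 of untreated #B-20. In parental cells Itga4 fell at 6 h of anti-IgM (log2 fold change -0.59 ± 0.12, adjusted p = 0.00248), which was lost, with adjusted p of 0.0126 to 0.0572, without any of the 4 libraries compared. Exons of Itga4 overlap those of Cerkl on the other strand over 3481 bases, and as the libraries kept no strand, reads of both genes in the shared stretch cannot be told apart.

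The ratio of the Itga4 and Itgb1 mRNAs lay apart between the genotypes at every time, also at 18 h in #B-20, where Itgb1 but not Itga4 differed from parental cells at the threshold. Per kilobase, Itga4 was 0.108 to 0.148 times Itgb1 in the 6 parental libraries, 0.555 to 0.592 times in those of #A-59 and 0.364 to 0.405 times in those of #B-20. These ranges did not overlap, and neither did they with all annotated exons as the length (0.0768 to 0.105, 0.393 to 0.42 and 0.258 to 0.287). The share of gene pairs whose ratios separate these lines was not determined, and the libraries of each clone stem from 1 line. Within a genotype the ratio moved little with anti-IgM, so that most of its variation lay between the lines. Itgb1 stayed the more abundant mRNA per kilobase in each library. In CPM, Itga4 was above Itgb1 in every #A-59 library, with 474 against 423 and 521 against 473 CPM untreated. It was below Itgb1 in the parental and #B-20 libraries.

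Itgb7, the beta chain that pairs with alpha 4 in the gut homing receptor, had the largest fold changes of the 9 genes both with anti-IgM and between the lines. Untreated parental cells had 44.4 and 56.1 CPM, which went to 16.5 and 19.8 CPM after 6 h and then to 174 and 189 CPM after 18 h. #A-59 started from 32.8 and 33.4 CPM, had 31.6 and 28.1 CPM after 6 h and ended at 127 and 111 CPM. #B-20 had 10.7 and 10.7 CPM, then 7.14 and 8.23 CPM and then 40.9 and 35.4 CPM. All lines had their highest level at 18 h, and #B-20 had the lowest level of the 3 lines at each time. The rise from 0 h to 18 h was 3.61-fold in parental cells (log2 fold change 1.85 ± 0.12, adjusted p = 3.37e-09), 3.59-fold in #A-59 (1.84 ± 0.12, adjusted p = 4.01e-09) and 3.57-fold in #B-20 (1.83 ± 0.14, adjusted p = 1.10e-07). These 3 rises did not differ at the threshold, with adjusted p of 1 for #A-59 and 0.981 for #B-20 against parental cells. The SE of the difference between these rises was 0.17 and 0.19 on the log2 scale.

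At 6 h, Itgb7 fell 2.77-fold in parental cells (log2 fold change -1.47 ± 0.13, adjusted p = 2.13e-07) and passed in neither clone. The 6 h response of #A-59 lay 1.32 ± 0.18 above the parental response on the log2 scale (adjusted p = 6.95e-04). It was the only one of the 36 differences in response that was a DEG, where 0.339% and 0.0326% of all genes were for #A-59 at 6 and 18 h, and 0.131% and 0.163% for #B-20. In a fit of the 8 libraries concerned alone its adjusted p was 0.019. Of all genes, 1 was a DEG for this difference in that fit, against 52 in the fit of all 18 libraries. For #B-20, the log2 response at 6 h was -0.48 ± 0.16 (adjusted p = 0.123), 0.98 ± 0.20 above that of parental cells, which missed the threshold (adjusted p = 0.0277) and passed it with DESeq2 (adjusted p = 0.00246) and without the filter on low counts (adjusted p = 1.26e-04). Against parental cells of the same time, Itgb7 in #B-20 was 4.70-fold lower at 0 h, 2.37-fold lower at 6 h and 4.76-fold lower at 18 h, DEGs with adjusted p of 7.83e-10, 2.99e-06 and 1.22e-10. In #A-59 it was 1.52-fold lower at 0 h (adjusted p = 0.00152), 1.65-fold higher at 6 h (adjusted p = 2.51e-04) and 1.52-fold lower at 18 h (adjusted p = 9.51e-04). These smaller differences reached adjusted p of 0.0137 to 0.0524 at 0 h without replicate 2 of parental cells or either #A-59 library, 0.0106 at 6 h without replicate 1 of parental cells, and 0.0217 and 0.0252 at 18 h without replicate 2 of parental cells or of #A-59. Per kilobase, Itga4 was 0.414 to 3.31 times Itgb7 in parental cells, 1.24 to 4.65 times in #A-59 and 2.41 to 14.5 times in #B-20, with the lowest ratio at 18 h in each line.

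**Figure D2:**
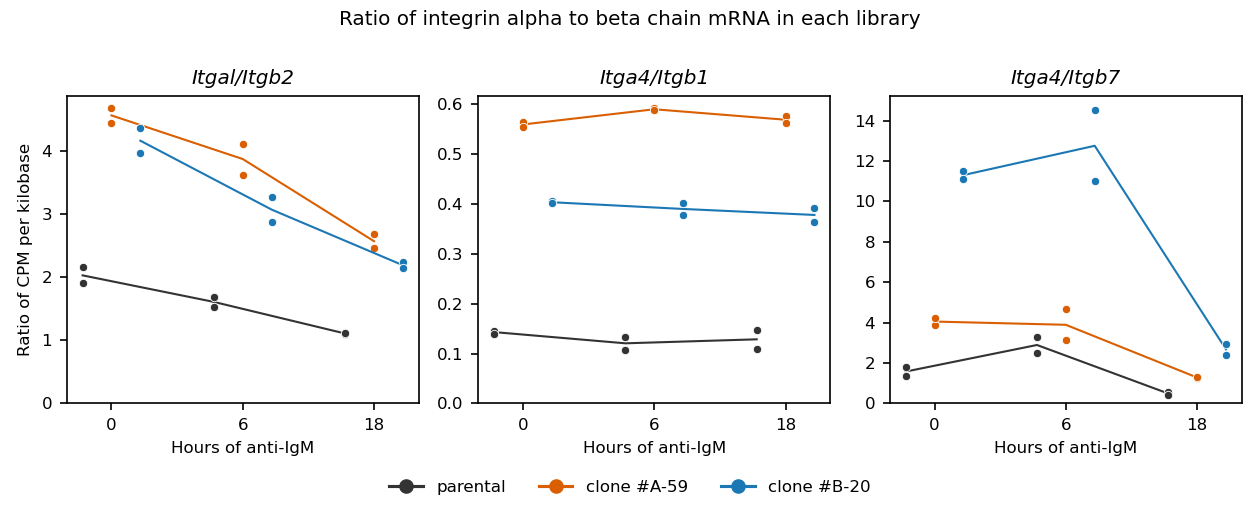
Ratio of alpha to beta chain mRNA, as CPM per kilobase of the main transcript, against hours of anti-IgM, with 1 point for each library and lines through the group means. The Itga4/Itgb1 ratio lay at 0.108 to 0.148 in parental cells, 0.364 to 0.405 in #B-20 and 0.555 to 0.592 in #A-59.

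Itgal, the alpha chain of LFA-1, was higher in both clones at all 3 times. Parental cells had 188 and 231 CPM before stimulation, 208 and 206 CPM after 6 h and 183 and 181 CPM after 18 h. #A-59 had 434 and 429, 427 and 397, and 336 and 324 CPM, and #B-20 had 317 and 361, 287 and 278, and 255 and 257 CPM. Every library of a clone was above every parental library, at whatever time. How many of all tested genes separate in this way over all times was not determined. In #A-59 the differences were 2.06-fold, 1.99-fold and 1.81-fold, with adjusted p of 1.15e-07, 1.37e-07 and 1.62e-06, and only the first, at 0 h, was a DEG. Without replicate 1 of untreated parental cells its log2 fold change was 0.91. In #B-20 they were 1.62-fold, 1.36-fold and 1.41-fold, with adjusted p of 1.88e-05, 0.00126 and 5.85e-04, and the adjusted p was 0.0181 to 0.0218 at 6 h without either parental library or replicate 1 of #B-20, and 0.0135 at 18 h without replicate 2 of parental cells. Itgal fell 1.31-fold in #A-59 (adjusted p = 0.00204) and 1.32-fold in #B-20 (adjusted p = 0.00213) from 0 h to 18 h, while the parental difference missed the threshold (adjusted p = 0.0865). These falls differed from the parental change at no adjusted p below the threshold (0.927 and 0.523), and their own adjusted p was 0.0102 to 0.0175 without either untreated #A-59 library or replicate 2 of #A-59 at 18 h, and 0.0157 and 0.0545 without replicate 1 of #B-20 at 18 h or replicate 2 of untreated #B-20.

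Itgb2, the beta chain of LFA-1, did not follow Itgal between the lines and rose with anti-IgM in each of them. The libraries of parental cells went from 56.4 and 61.0 CPM over 69.8 and 77.2 CPM after 6 h to 94.5 and 93.0 CPM after 18 h. #A-59 went from 55.6 and 52.1 over 67.0 and 54.8 to 71.2 and 75.1 CPM, and #B-20 from 45.4 and 47.1 over 50.1 and 54.9 to 65.1 and 68.3 CPM. In every line both 18 h libraries were above both untreated ones. From 0 h to 18 h Itgb2 rose 1.60-fold in parental cells (adjusted p = 1.88e-05), 1.36-fold in #A-59 (adjusted p = 0.00135) and 1.44-fold in #B-20 (adjusted p = 4.67e-04), with no difference between the rises at the threshold (adjusted p = 0.855 and 0.687 against parental cells). The adjusted p of the rise was 0.02 and 0.0222 without replicate 2 of #A-59 at 0 h or at 18 h, and 0.0117 without replicate 1 of untreated #B-20. #B-20 had 1.40-fold less Itgb2 than parental cells at 6 h (adjusted p = 0.00118) and 1.41-fold less at 18 h (adjusted p = 0.00101), and #A-59 did not pass at any time (adjusted p = 0.492, 0.0413 and 0.0154), although it passed in 1 of 8 other settings at 6 h and 3 of 8 at 18 h, with adjusted p down to 0.00158 and 0.00238. The adjusted p in #B-20 was 0.0219 and 0.0257 at 6 h without replicate 1 of #B-20 or replicate 2 of parental cells, and 0.0111 to 0.0132 at 18 h without either parental library or replicate 1 of #B-20. The ratio of Itgal to Itgb2 per kilobase fell with time in each line, from 1.90 and 2.15 at 0 h to 1.10 and 1.11 at 18 h in parental cells, from 4.43 and 4.68 to 2.68 and 2.45 in #A-59 and from 3.96 and 4.35 to 2.23 and 2.14 in #B-20. It was above the parental values in both clones at each time. For how many gene pairs the ratio separates likewise was not determined.

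Cd44, the hyaluronan receptor, moved in opposite directions at 6 and 18 h of anti-IgM in parental cells. It went from 72.7 and 82.8 CPM untreated up to 139 and 130 CPM after 6 h and down to 43.4 and 38.4 CPM after 18 h. #A-59 had 39.3 and 43.5, 36.9 and 39.9, and 30.7 and 32.3 CPM, and #B-20 had 89.6 and 88.4, 88.4 and 80.3, and 70.1 and 68.5 CPM. Neither clone thus showed the peak at 6 h. In parental cells Cd44 rose 1.73-fold at 6 h (log2 fold change 0.79 ± 0.09, adjusted p = 9.42e-06) and was 1.91-fold lower at 18 h than at 0 h (adjusted p = 4.66e-07). The 6 h response was lower than the parental one by -0.90 ± 0.14 on the log2 scale in #A-59 (adjusted p = 0.00175) and by -0.87 ± 0.13 in #B-20 (adjusted p = 0.00308). Differences in response at an adjusted p below 0.01, whatever the size, at 6 h were found for 2 of the 9 genes for #A-59 (0.646% of all genes) and 1 for #B-20 (0.183%), and at 18 h for 0 (0.0392% and 0.222% of all genes), where DESeq2 found 0 as well and the unadjusted p of edgeR was below 0.05 for 2 and 4 genes. Without the filter on low counts, Cd44 had such a difference in #B-20 at 18 h (adjusted p = 0.00346). The value in #A-59 was -0.82 to -0.85 (adjusted p = 0.0137 to 0.0143) without replicate 1 of parental cells at 0 h or 6 h or replicate 2 of untreated #A-59, and -0.90 (adjusted p = 0.0322) in a fit of the 8 libraries alone. In #B-20 it was -0.79 to -0.97 (adjusted p = 0.0101 to 0.035) without any 1 of the 4 parental libraries, the untreated #B-20 libraries or replicate 2 of #B-20 at 6 h. From 0 h to 18 h Cd44 fell 1.31-fold in #A-59 (adjusted p = 0.00339) and 1.28-fold in #B-20 (adjusted p = 0.00593). Those falls did not hold without replicate 2 of untreated #A-59 or either 18 h library of #A-59 (adjusted p = 0.0105 to 0.0384), nor without any of the 4 #B-20 libraries (adjusted p = 0.0234 to 0.032). The fall in #B-20 was also lost with library totals alone (adjusted p = 0.0132), without the filter on low counts (0.0182), with the GC correction (0.0136) and in a fit of its 4 libraries alone (0.0144).

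Between the lines, Cd44 was 1.88-fold lower than in parental cells in untreated #A-59 (adjusted p = 1.11e-06) and 3.51-fold lower at 6 h, a DEG (log2 fold change -1.81 ± 0.10, adjusted p = 7.93e-11), while the difference at 18 h missed the threshold (adjusted p = 0.0143, and 0.00637 with the GC correction). #B-20 was 1.59-fold below parental cells at 6 h (adjusted p = 2.50e-05) and 1.70-fold above them at 18 h (adjusted p = 9.92e-06), with an adjusted p of 0.173 at 0 h. The sign of the #B-20 difference therefore turned with time, along with the parental level. Over 207 bases, exons of Cd44 overlap those of Gm57471 on the other strand, where reads of both genes cannot be told apart.

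Icam1, a ligand of LFA-1 that is known as a target of NF-kappaB, fell with anti-IgM in parental cells. The libraries had 84.5 and 94.2 CPM untreated, 50.9 and 50.2 CPM after 6 h and 61.2 and 63.2 CPM after 18 h. #A-59 had 136 and 106, 95.6 and 82.5, and 122 and 107 CPM, and #B-20 had 73.4 and 94.2, 50.0 and 49.8, and 89.0 and 71.6 CPM. The 6 h libraries were the lowest in each line, and in #A-59 and #B-20 the values at 18 h overlapped the untreated ones. The parental fall was 1.77-fold at 6 h (adjusted p = 3.39e-04) and 1.44-fold at 18 h (adjusted p = 0.00427), and in #B-20 it was 1.68-fold at 6 h (adjusted p = 0.00427). In #A-59 it missed the threshold at 6 h (adjusted p = 0.033), and passed without the filter on low counts (8.25e-04) and with the GC correction (0.00142). The responses of the clones did not differ from the parental ones at the threshold (adjusted p = 0.295 to 1). The parental fall at 18 h had adjusted p of 0.0222 to 0.0334 without either 18 h library or replicate 2 at 0 h, and the fall in #B-20 had adjusted p of 0.0332 to 0.146 without either 6 h library or replicate 2 at 0 h. Icam1 was 1.76-fold higher in #A-59 than in parental cells at 6 h (adjusted p = 1.31e-04) and 1.84-fold higher at 18 h (adjusted p = 1.28e-04), with an adjusted p of 0.0286 at 0 h, and #B-20 passed at no time (adjusted p = 0.702, 0.937 and 0.0586). Without the filter on low counts or with the GC correction, #A-59 at 0 h (adjusted p = 5.53e-04 and 0.00674) and #B-20 at 18 h (adjusted p = 7.85e-04 and 0.00659) passed as well. The antisense gene Gm47079 shares 511 bases of Icam1 exons, where reads of both genes cannot be told apart without strand.

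Icam2, the other LFA-1 ligand here, passed in none of the 19 comparisons, by edgeR or by DESeq2, and 4 of them had an unadjusted p below 0.05. Its libraries lay between 15.8 and 28.2 CPM, and the smallest adjusted p was 0.0222, for #B-20 against #A-59 at 18 h. In untreated cells parental libraries had 24.3 and 24.5 CPM, those of #A-59 25.0 and 22.9 CPM and those of #B-20 15.8 and 20.5 CPM. Icam2 shares 1818 bases of exon with Prr29 on the opposite strand, so that its counts are uncertain.

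Selplg, which encodes PSGL-1, was higher at 18 h than at 0 h in all 3 lines. In parental cells 65.9 and 66.1 CPM were counted untreated, 55.4 and 48.6 CPM after 6 h and 116 and 110 CPM after 18 h. #A-59 had 69.6 and 50.1, 96.1 and 80.3, and 91.8 and 82.6 CPM, and #B-20 had 59.8 and 50.5, 64.0 and 60.8, and 104 and 84.8 CPM. The untreated #A-59 libraries were the furthest apart, and in #A-59 the libraries at 6 h overlapped those at 18 h. The 18 h rise was 1.72-fold in parental cells (adjusted p = 1.66e-04), 1.45-fold in #A-59 (adjusted p = 0.00413) and 1.71-fold in #B-20 (adjusted p = 3.35e-04). The rise in #A-59 had adjusted p of 0.0104 to 0.094 without either 18 h library or replicate 2 at 0 h, and that in #B-20 of 0.0123 and 0.011 without replicate 1 at 18 h or replicate 2 at 0 h. At 6 h Selplg was 1.70-fold higher in #A-59 than in parental cells (adjusted p = 3.33e-04, and 0.011 without replicate 2 of parental cells). The 6 h response of #A-59 lay 0.90 ± 0.20 above the parental one on the log2 scale, which missed the threshold (adjusted p = 0.0209) and passed it with DESeq2 (0.00131), with the replicate block (0.001) and without the filter on low counts (2.75e-06). Exons of Selplg share 541 bases with Gm71766 on the other strand, a gene without an entry in the counts. Reads of both cannot be told apart there.

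**Figure D3:**
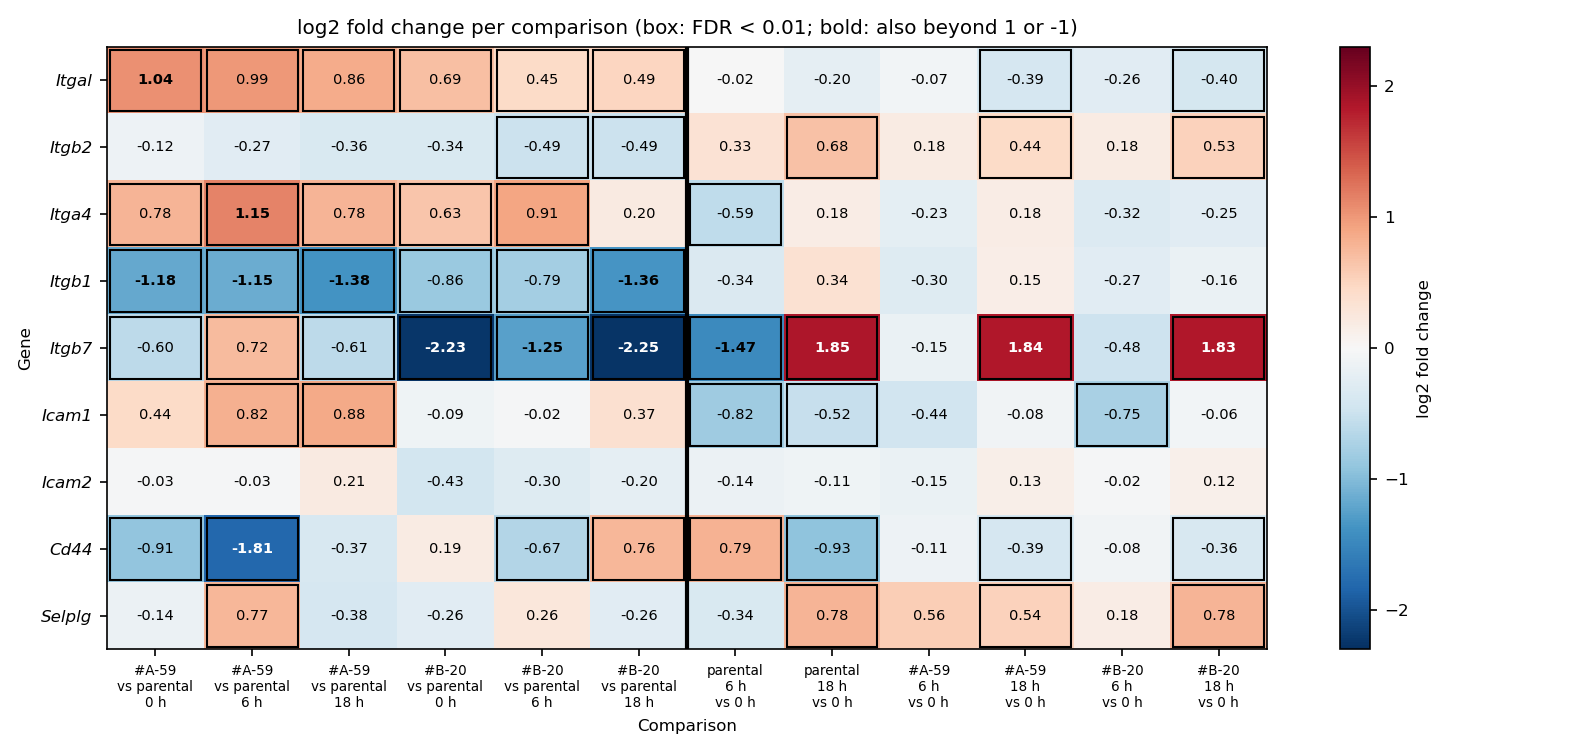
log2 fold change of the 9 genes (rows) of a clone against parental cells in 6 comparisons (left) and the 6 responses to anti-IgM against 0 h (right), on a colour scale from blue (lower) to red (higher). Boxes mark an adjusted p below 0.01 and bold values are also beyond 1 or -1, as for Itgb1 in #A-59 and Itgb7 in #B-20 at each time.

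In the responses to anti-IgM, 4 of the 54 gene differences were DEGs, all of them Itgb7, at 6 h in parental cells and at 18 h in each line. In parental cells 1 of 9 genes was a DEG at 6 h and 1 at 18 h, where 2.62% and 10.3% of all genes were. In #A-59 the counts were 0 and 1 of 9 (1.39% and 8.76% of all genes), and in #B-20 0 and 1 of 9 (0.385% and 4.80%). DESeq2 called 0 of 9 at 6 h in both clones too, and the unadjusted p of edgeR was below 0.05 for 3 genes of the first clone and 5 of the second. At an adjusted p below 0.01 whatever the size, 4 and 5 of the 9 genes passed in parental cells at 6 and 18 h (7.34% and 32.6% of all genes), 0 and 5 in #A-59 (6.14% and 31.8%) and 1 and 5 in #B-20 (1.29% and 22.8%). DESeq2 passed 1 gene in #A-59 at 6 h, Selplg. Each 6 h and 18 h comparison of a line shares its untreated libraries.

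The clones differed from each other in 6 of 27 comparisons at the level of a DEG, all in Itgb7 and Cd44. At 0, 6 and 18 h this was 2 of 9 genes each, where 3.85%, 5.82% and 4.82% of all genes were DEGs. Itgb7 was lower in #B-20 than in #A-59 by 3.10-fold, 3.91-fold and 3.12-fold (adjusted p = 1.14e-07, 1.34e-08 and 1.25e-08). Cd44 was higher in #B-20 by 2.15-fold, 2.20-fold and 2.20-fold (adjusted p = 1.69e-07, 9.83e-08 and 9.84e-08). With a correction for GC content, Cd44 at 6 h was 0.97 on the log2 scale and just short of a DEG. At an adjusted p below 0.01 whatever the size, 2, 4 and 5 genes differed between the clones (8.41%, 18.7% and 16.2% of all genes). Itgal was lower in #B-20 than in #A-59 by 1.46-fold at 6 h (adjusted p = 2.09e-04, and 0.0186 in a fit of the 4 libraries alone), and Icam1 by 1.79-fold (adjusted p = 1.69e-04). Itgb1 passed at no time between the clones (adjusted p = 0.0445, 0.0153 and 0.956), but did at 6 h with DESeq2 (0.00853) and with the replicate block (0.00855).

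**Figure D4:**
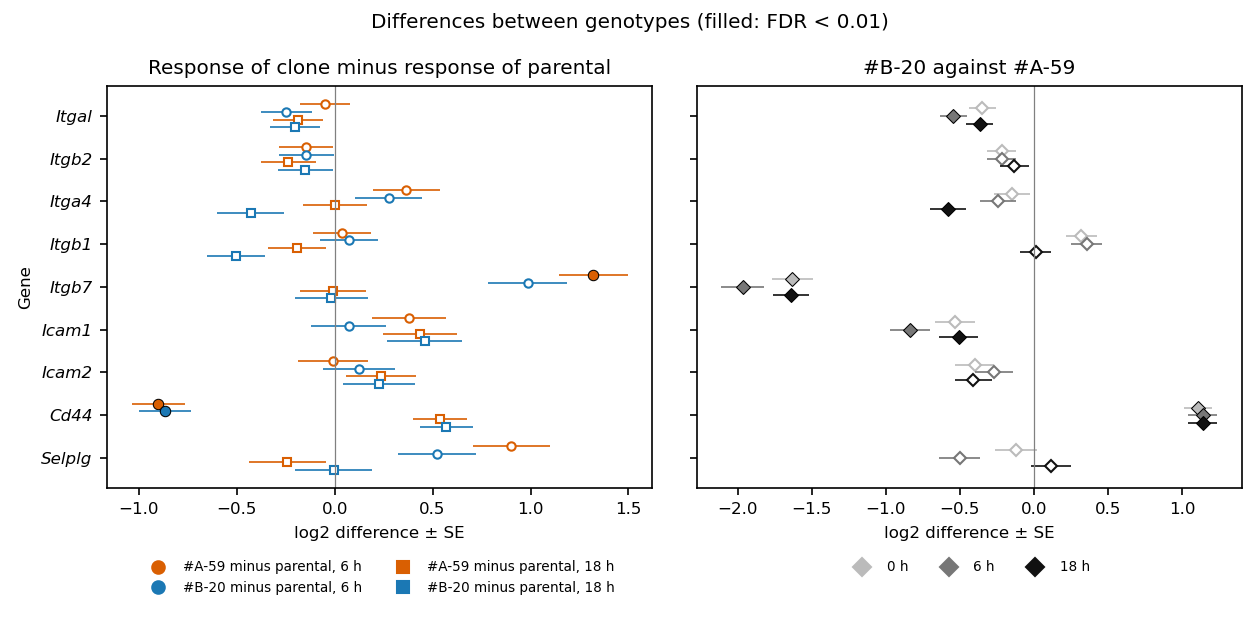
Left, response to anti-IgM of a clone minus that of parental cells, at 6 h (circles) and 18 h (squares); right, #B-20 against #A-59 at 0, 6 and 18 h (diamonds), both as log2 difference with its SE. Filled symbols have an adjusted p below 0.01, which on the left are Itgb7 in #A-59 and Cd44 in both clones, all at 6 h.

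The genes around these receptors were read from lists of adhesion genes, and the DEGs among them stand beside the 4.78% to 7.91% of all tested genes that were DEGs in either direction between a clone and parental cells. Of 21 other integrin chains 10 were expressed well enough to be tested, and against parental cells 0 to 3 were higher and 1 to 3 lower DEGs per comparison, or 2 to 4 of the 10 in either direction. Itgb3, the beta chain of the vitronectin receptor, was a DEG in both clones at all 3 times, with 31.9 to 38.9 CPM in the parental libraries against 0.227 to 0.745 CPM in #A-59 and 0.295 to 1.87 CPM in #B-20. Itgam, the alpha chain that pairs with Itgb2 in Mac-1, was higher in both clones at 0 and 6 h, with 1.12 and 1.45 CPM in untreated parental libraries, 7.18 to 9.06 CPM in #A-59 and 2.68 to 3.91 CPM in #B-20. At 18 h it was higher in #A-59 (adjusted p = 3.61e-06), while #B-20 missed the threshold with a log2 fold change of -0.29 (adjusted p = 0.358). Itgam was also on the list of myeloid markers, of which 3 could be tested. Against parental cells these 3 held 1, 2 and 1 higher DEGs for #A-59 in the order of the times, and 1, 1 and 0 for #B-20, and 2 were higher in #A-59 at 6 h and at 18 h than at 0 h. Their part in these results was not tested.

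Among 30 tested receptors of other adhesion families, the comparisons of #A-59 with parental cells had 7, 8 and 9 lower DEGs and those of #B-20 had 5, 5 and 9, against 1 to 3 that were higher. In either direction this made 6 to 11 of the 30. Their median log2 fold change against parental cells lay between -0.19 and -0.59. Cd226, which encodes the adhesion and activation receptor DNAM-1, had 99 to 197 counts per parental library and 0 to 3 in those of the clones. Alcam, a ligand of CD6, was at 57.1 and 64.6 CPM in parental cells at 6 h, against 2.89 and 3.27 CPM at 0 h, and reached 6.63 to 10.1 CPM in the clones at 6 h. Cd84, a receptor of the SLAM family, was higher in #A-59 at all 3 times and in #B-20 at 0 and 6 h (adjusted p = 0.0246 at 18 h), with 0.759 and 1.16 CPM in untreated parental libraries, 3.49 and 4.19 CPM in #A-59 and 3.21 and 3.47 CPM in #B-20.

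Genes that switch integrins on or carry their signals are given by counts. Of 26 tested genes of integrin activation (talin, kindlin and Rap1 pathway), 0 or 1 were higher and 0 to 3 lower DEGs per comparison with parental cells (at most 3 of 26 in either direction, or 11.5%), with medians between -0.05 and 0.21. Of 29 genes of outside-in signalling, 0 to 2 were higher and 0 or 1 lower (up to 6.9%), with medians between 0.02 and 0.33. Of 14 genes of hyaluronan and the CD44 linkers to actin, 0 or 1 were higher and 0 to 4 lower, the 4 in #B-20 at 6 h. Of 11 enzymes that glycosylate PSGL-1, at most 1 was a DEG per comparison, a higher one, and of 13 tetraspanins 0 or 1 were higher and 1 or 2 lower.

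The patterns of the 9 genes over the 9 group means were also compared with those of 6063 expressed and variable genes. Itgb7 was followed most closely by Unc13d (Pearson r = 0.994), Olfml2a (0.989) and Yipf1 (0.988). For Itgb1 these were Gm49223 (0.988), Tmem161b (0.977) and 1300002E11Rik (0.977), and for Itgal Hebp1 (0.968), Gm12678 (0.965) and Tnip3 (0.963). Itga4 went with Wdfy1 (0.973), Tacc2 (0.968) and Usp12 (0.958), and Itgb2 with Efna1 (0.983), Crot (0.982) and 1600014C10Rik (0.979). Icam1 was nearest to Pde4dip (0.967), Gm44815 (0.952) and Znfx1 (0.939), and Icam2 to Lrrc32 (0.971), Ptprjos1 (0.952) and Agbl2 (0.952). Cd44 was nearest to B130055M24Rik (0.955), Ccdc66 (0.939) and Gm14325 (0.934), and Selplg to Fchsd1 (0.974), Tspan32 (0.957) and Nat14 (0.949). Among the 9 genes themselves, Itgb2 and Itgb7 were the most alike pair (r = 0.777) and Itgal and Itgb1 the most opposed one (r = -0.884). With 9 points that share libraries and 6063 candidates, such values are a description of these groups.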

How the data were processed

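RNA was sequenced from 18 libraries, grouped by their labels into 9 groups of 2. The authors deposited counts, which were whole numbers of reads per Ensembl gene without normalisation, and each file was used as it was. According to the methods and the submitters' processing notes, non-stranded mRNA libraries were read from a single end, demultiplexed with bcl2fastq (2.20.0.422 in the notes, another version in the methods), aligned with STAR 2.5 to GRCm38 and counted with featureCounts 1.5.0-p1, while the counting options are not given in the sources used here. Of 55487 Ensembl identifiers, 93.2% were matched to symbols of GENCODE vM39. How reads where genes of both strands overlap were counted is therefore not known. Library totals of 11223588 to 29655262 counts set the precision of low genes.

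Counts were tested with edgeR 4.0.16 (R 4.3.3) by the quasi-likelihood test with robust estimation, after TMM scaling and removal of low genes with filterByExpr (15318 kept), fitting 1 mean for each of the 9 groups over all 18 libraries. P-values were adjusted by Benjamini-Hochberg over all tested genes of a comparison. According to the study the duplicates are independent experiments, and p-values measure only the spread between them. Comparisons were each clone against parental cells at each time, 6 and 18 h against 0 h in each line, the difference of these responses, and clone against clone. CPM per kilobase used the length of the GENCODE vM39 main transcript, or of all exons, and exon overlaps came from the same release. As it is for a later genome build than GRCm38, its lengths and overlaps may differ from those used in counting. Alternatives were DESeq2 1.42.0, its size factors, library totals alone, other filters on low counts, a loess correction for GC content, fits of the compared libraries alone, the replicate number as a term and leaving out each library.

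The 9 genes and the lists were chosen with earlier results of these data known. Genes were named from the lists where both clones were DEGs in the same direction at 2 or more times (at most 4 per list, with a mean of at least 10 counts), and the 3 most alike genes by Pearson r over the group means, among genes with a mean of at least 1 CPM and an SD of at least 0.3 on the log2 scale. Other list members were given by counts. The upstream sequences are from RefSeq.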

Additional observations from a re-analysis of the deposited data

Results flagged for a closer look

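Of the differences between the genotypes, those listed here passed edgeR's quasi-likelihood test of the difference itself with Benjamini-Hochberg adjustment. The response to anti-IgM at 6 h differed from that of parental cells for Itgb7 in #A-59 (log2 difference 1.32, adjusted p = 6.95e-04) and for Cd44, by -0.90 for #A-59 (adjusted p = 0.00175) and by -0.87 for #B-20 (adjusted p = 0.00308), all against the same parental libraries. Since the clones were compared with the same parental cells, a difference between the clones is also a difference between their distances from parental cells. For Itgb7, the log2 difference of #B-20 from #A-59 amounted to -1.63 untreated, -1.97 after 6 h and -1.64 after 18 h (adjusted p = 1.14e-07, 1.34e-08 and 1.25e-08), and for Cd44 it was 1.11, 1.14 and 1.14 (adjusted p = 1.69e-07, 9.83e-08 and 9.84e-08). Icam1 differed by -0.84 at 6 h and -0.51 at 18 h (adjusted p = 1.69e-04 and 0.00803), Itgal by -0.55 and -0.37 (adjusted p = 2.09e-04 and 0.00593) and Itga4 by -0.58 at 18 h (adjusted p = 0.00151). The 18 h differences of Icam1, Itgal and Itga4 reached adjusted p of 0.0102 to 0.12, 0.01 to 0.0598 and 0.0105 to 0.0245 when a single library was left out. For Itga4 this was so without replicate 1 of #A-59 or either library of #B-20 at 18 h, for Itgal without any of the 4 libraries compared, either parental library at 6 h or parental replicate 2 at 18 h, and for Icam1 without either #A-59 library or replicate 2 of #B-20 at 18 h, #B-20 replicate 1 at 6 h or any parental library at 6 h or 18 h. Their cause was not tested. The difference of Itgal at 6 h had an adjusted p of 0.0186 in a fit of the 4 libraries alone. With every library of the comparison kept, the 18 h difference of Itgal missed the threshold with library totals alone (adjusted p = 0.0105) and without the filter on low counts (0.0145). That of Icam1 missed it with library totals alone (0.0144) and in a fit of the 4 libraries alone (0.027). With 2 libraries per group, a test for single outlying values was not possible.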

How the results depend on the processing

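The labels do not say whether a replicate number marks a shared experiment, and the samples were not treated as paired. The deviations of same-numbered libraries from their group means correlated by -0.0258 to 0.32 (median 0.0777) over the 36 pairs of groups, with 14 above 0.1. With the replicate block, 10, 4, 1 and 6 gene differences were DEGs for clones against parental cells, responses to anti-IgM, differences in response and clone against clone, the same counts as without it. The other settings gave counts within 1.5 times of these, except that 0 differences in response were DEGs when only the libraries of the groups compared were fitted (Itgb7 in #A-59 at 6 h, 1.32, adjusted p = 0.019). When each library was left out in turn, the counts ranged from 9 to 10, 4 to 5, 1 to 2 and 6 to 6. Leaving a group with 1 library assumes that it varies like the other groups. Of the 66 gene differences with an adjusted p below 0.01, 60 kept it under all settings that used every library of a comparison, and 41 whichever library was left out. Of the 105 that missed it, 20 passed in at least 1 of these settings. Itgal in #A-59 at 6 h just passed a log2 fold change of 1 without the filter on low counts and in the fit of the compared libraries (1.01). No scaling moved the median of all genes by over 0.1. At 2 libraries per group, the SE of 0.09 to 0.20 on the log2 scale limits which differences could be seen.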
